A study of Mus musculus with 8 samples.

Results

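The 10 genes described here are Evx2 and the 9 Hoxd genes, Hoxd13, Hoxd12, Hoxd11, Hoxd10, Hoxd9, Hoxd8, Hoxd4, Hoxd3 and Hoxd1, which lie side by side on mouse chromosome 2. They were taken by name from a table of 21896 protein-coding genes, and all 10 were found. Every peak of H2AK119ub, a histone H2A mark made by adding ubiquitin to a lysine of its tail, was then collected from 20 kb before Evx2 to 20 kb after Hoxd1, a window of 152.2 kb in the mm10 build (chr2:74632989-74785142). The window held 1 of the 4621 control peaks and 5 of the 2541 Eed cKO peaks.

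H2AK119ub was mapped by chromatin immunoprecipitation and sequencing in epidermal progenitors of newborn mice (postnatal day 0), sorted from back skin by EpCAM, Sca1 and high α6-integrin. The series has 8 libraries: 2 H2AK119ub libraries from Control mice, 2 from Eed cKO mice (genotype Eed-/-), 1 from Ring1a/b 2KO mice (genotype Ring1a-/- Ring1b-/-), and 1 input per genotype. The data used here are 1 peak list for Control and 1 for Eed cKO, and the Ring1a/b 2KO library was not analysed here. No Cre driver, control allele, sex or number of animals per library is given in the labels.

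Hox genes encode homeodomain transcription factors that give cells their position along the body axis, and their order on the chromosome follows the order in which they act. The Hoxd genes also shape the limbs and the genital tubercle, with Hoxd13 to Hoxd9 acting in more distal and posterior parts and Hoxd4 to Hoxd1 in more anterior ones. In cells that do not use them, Hox clusters are classic targets of the Polycomb complexes. Polycomb repressive complex 1 (PRC1) places H2AK119ub through its Ring1 ubiquitin ligases, and Polycomb repressive complex 2 (PRC2), of which Eed is a core subunit, methylates histone H3 on lysine 27. Some forms of PRC1 are recruited by that methylation and others bind without it. The comparison of the lists addresses which stretches of the cluster still carried a called H2AK119ub peak in cells with the Eed-/- genotype.

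The lists give positions only, with no height or score, and there is 1 list for each genotype, not 1 for each library. No replicate error can therefore be given for any value below, no test of a genotype difference was possible, and every comparison is a description of 1 list against the other. The read depth behind either list is unknown, so a stretch without a peak is a stretch that was not called, which does not show that the mark was absent. Over the whole lists, control peaks had a median width of 4327 bp and covered 29.0 Mb, and Eed cKO peaks had a median width of 5169 bp and covered 16.6 Mb. Positions of a repressive mark do not report expression, so the sorted cell type could not be checked by its RNA. Of 8 basal keratinocyte marker genes, among them Krt5 and Krt14, 1 (Krt15) had a peak at a gene end in control and in Eed cKO, with 0% of its span covered in control and 100% in Eed cKO. Of 5 fibroblast markers 3 were marked in control (Twist2, Prrx1 and Pdgfra) and 1 in Eed cKO (Twist2), of 3 melanocyte markers 1 (Sox10) and 0, and of 3 leukocyte markers 0 and 0. Over all protein-coding genes the shares were 11.6% in control and 7.40% in Eed cKO.

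In control cells the whole cluster lay under 1 unbroken H2AK119ub domain. The domain spanned 136.8 kb (chr2:74639331-74776113), ranked 1 by width in the control list and was 31.6 times as wide as the median control peak. It reached 13.7 kb beyond the outer end of Evx2 and 11.0 kb beyond the outer end of Hoxd1. All 10 gene spans were under it from end to end, as were all 7 stretches between neighbouring genes. Over all protein-coding genes, 1.60% had the whole span under control peaks. In Eed cKO this held for 2 of the 10, Evx2 and Hoxd12, and for 1.00% of all genes.

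In Eed cKO cells the same stretch held 5 separate peaks that covered 56.9 kb, or 41.6%, of the control domain, and 79.9 kb of it was not called. All 5 lay inside the control domain, while 21.7% of the peaks of the Eed cKO list lay wholly inside a control peak. The control domain filled 89.9% of the window, so a peak collected there had little room to lie outside it. In order from Evx2 to Hoxd1 their widths were 22.7, 8.82, 7.05, 16.1 and 2.31 kb. The outermost Eed cKO peaks reached 7.91 kb beyond Evx2 and 1.10 kb beyond Hoxd1, so the covered stretch was shorter than in control on both sides. The peak at Evx2 ranked 45 by width among the 2541 Eed cKO peaks and the small peak at Hoxd1 ranked 2213.

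**Figure D1:**
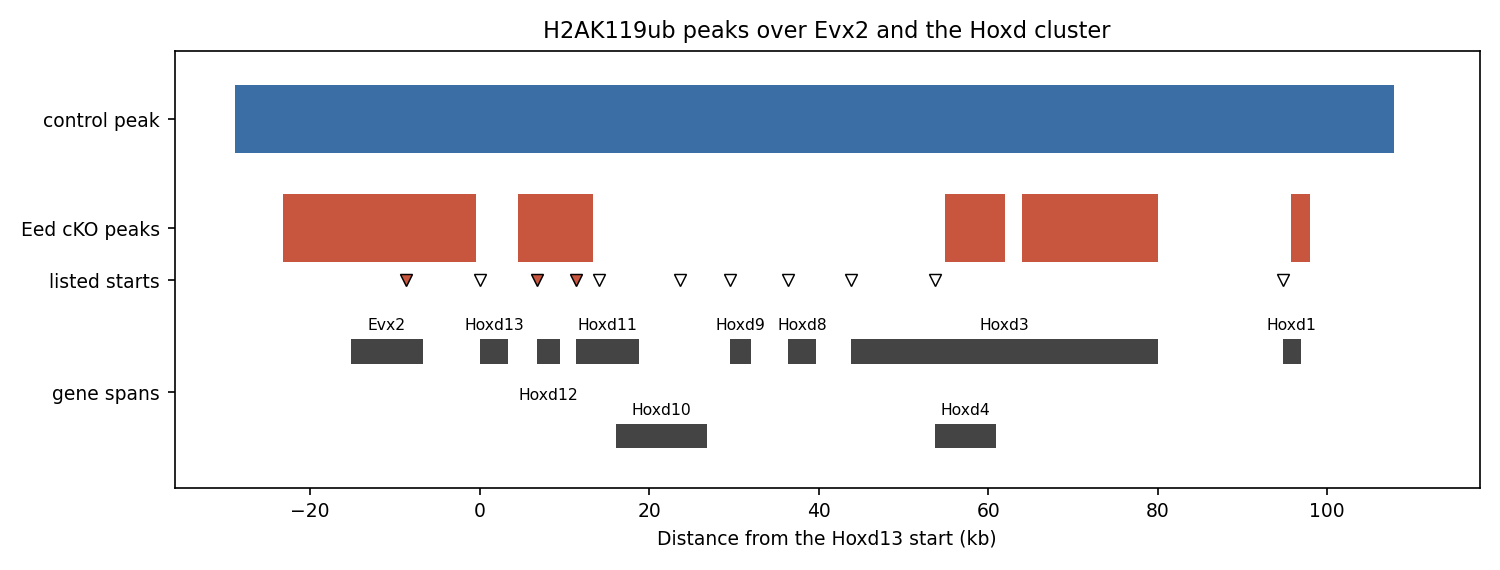
Map of the Hoxd cluster, with the distance from the Hoxd13 start in kb on the x axis. The upper bar is the control peak, the bars below it are the 5 Eed cKO peaks, triangles are the 11 listed transcription starts (filled where under an Eed cKO peak, open where not) and the dark bars are gene spans. The widest stretch without an Eed cKO peak, 41.5 kb, runs from inside Hoxd11 to inside Hoxd4.

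The promoters of the 5′ part of the cluster show how close together the covered and the uncalled stretches of Eed cKO lie. The following sequences are the 250 bases just before a listed transcription start, from RefSeq (GRCm38.p6, the assembly also called mm10), on the plus strand and written 5′ to 3′. Capitals mark CG dinucleotides, the CpG sites whose density is a known feature of Polycomb-bound promoters. The promoters of Hoxd12 (chr2:74674763-74675012) and of the first Hoxd11 start (chr2:74679308-74679557) lay under an Eed cKO peak over their full length. Those of Hoxd13 (chr2:74667975-74668224), of the second Hoxd11 start (chr2:74682073-74682322) and of Hoxd10 (chr2:74691641-74691890) lay under none, and all 5 lay under the control domain.
Hoxd13: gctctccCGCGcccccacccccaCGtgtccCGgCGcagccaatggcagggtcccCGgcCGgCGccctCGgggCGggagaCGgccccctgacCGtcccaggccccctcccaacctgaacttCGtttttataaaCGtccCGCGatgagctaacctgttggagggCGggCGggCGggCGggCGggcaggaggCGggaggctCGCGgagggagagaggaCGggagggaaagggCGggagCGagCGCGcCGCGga
Hoxd12: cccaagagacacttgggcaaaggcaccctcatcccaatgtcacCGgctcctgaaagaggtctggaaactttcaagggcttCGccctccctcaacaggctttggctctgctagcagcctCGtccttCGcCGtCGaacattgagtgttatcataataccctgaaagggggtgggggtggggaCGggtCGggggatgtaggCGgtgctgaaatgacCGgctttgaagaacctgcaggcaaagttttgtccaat
Hoxd11 first start: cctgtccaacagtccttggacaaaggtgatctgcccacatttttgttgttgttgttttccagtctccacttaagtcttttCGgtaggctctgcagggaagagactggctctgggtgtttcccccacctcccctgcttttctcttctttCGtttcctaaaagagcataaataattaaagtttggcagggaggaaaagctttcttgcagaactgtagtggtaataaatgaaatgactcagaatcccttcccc
Hoxd11 second start: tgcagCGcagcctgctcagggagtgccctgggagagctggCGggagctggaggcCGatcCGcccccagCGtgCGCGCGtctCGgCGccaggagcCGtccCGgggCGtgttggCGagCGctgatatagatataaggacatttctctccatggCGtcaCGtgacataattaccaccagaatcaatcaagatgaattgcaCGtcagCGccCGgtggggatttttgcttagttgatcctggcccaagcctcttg
Hoxd10: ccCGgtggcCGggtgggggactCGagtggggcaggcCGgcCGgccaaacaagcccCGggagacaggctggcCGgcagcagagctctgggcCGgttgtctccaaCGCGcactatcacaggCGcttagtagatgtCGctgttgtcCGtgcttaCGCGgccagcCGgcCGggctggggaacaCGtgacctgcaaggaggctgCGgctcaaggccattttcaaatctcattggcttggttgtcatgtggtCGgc

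The Hoxd13 promoter, with 31 CG in 250 bases, and the Hoxd10 promoter, with 20, were outside the Eed cKO peaks. The first Hoxd11 promoter, with 2, and the Hoxd12 promoter, with 10, were inside them. Over the 11 listed starts of the 10 genes (Hoxd11 has 2), the 3 starts under an Eed cKO peak had 14 (Evx2), 10 (Hoxd12) and 2 (Hoxd11) CG. The 8 starts outside had between 3 (Hoxd4) and 31, with a median of 16.5, so the ranges overlap. Among all starts of the table, those under peaks of both lists had a median of 16 CG and those under a control peak alone a median of 14, with an overall median of 10. At least 1 CG is held by 93.4% of all these 250-base stretches. These counts are a description of 11 neighbouring starts that share 5 peaks.

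Evx2, a relative of the fly even-skipped gene that is active in the distal limb, was covered over its full length in both lists. The gene runs for 8.53 kb on the minus strand (chr2:74652989-74661520), with 100% of the span under a peak in each. The first Eed cKO peak (chr2:74645079-74667744) also held its listed start and the whole of Gm31790, a long noncoding RNA gene next to it. It filled 92.8% of the 6.70 kb between Evx2 and Hoxd13.

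Hoxd13, the gene needed for digit and genital formation and mutated in synpolydactyly, lay between Eed cKO peaks. The peak at Evx2 ended 481 bp before the Hoxd13 start and the next peak began beyond its other end, which left an uncalled stretch of 5.04 kb (chr2:74667745-74672782) holding the complete 3.38 kb gene. The span was thus covered to 100% in control and to 0% in Eed cKO. A window of 2000 bp around the gene ends still meets both neighbouring peaks, so the gene counts as marked under that rule and as unmarked by its own sequence.

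Hoxd12, a posterior gene with a part in limb patterning, was the only Hoxd gene whose span was covered to 100% in Eed cKO. The 8.82 kb peak (chr2:74672783-74681597) contained its 2.69 kb span, the 1.85 kb between Hoxd12 and Hoxd11 and 65.4% of the 3.41 kb between Hoxd13 and Hoxd12. Hoxd11, which acts with its relative Hoxa11 in forming the forearm, was covered over 27.3% of its 7.46 kb. Its first listed start lay under this peak, and its second listed start lay 726 bp beyond the end of the peak. Of the 34.0 kb from Evx2 to the end of Hoxd11, Eed cKO peaks covered 69.3%.

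Hoxd10, Hoxd9 and Hoxd8, the genes of the middle of the cluster, had no H2AK119ub peak anywhere in their spans in Eed cKO. Hoxd10 and Hoxd9 take part in hindlimb and lumbar patterning, and each of these genes was covered to 100% in control. They lay in an uncalled stretch of 41.5 kb (chr2:74681598-74723113), which makes up 30.4% of the control domain. The distance from the listed start to the nearest Eed cKO peak was 10.3 kb for Hoxd10, 16.2 kb for Hoxd9 and 18.5 kb for Hoxd8. The listed Hoxd10 start (74691891) lies well inside the RefSeq span of the gene (chr2:74684273-74695106), whose first part overlaps Hoxd11. The span end on that side is nearer to a peak, and with a window of 5000 bp around the gene ends Hoxd10 counted as marked in Eed cKO. The 2.66, 4.41 and 4.06 kb between Hoxd10 and Hoxd9, Hoxd9 and Hoxd8, and Hoxd8 and Hoxd3 were likewise covered to 0%. The stretch also took in the long noncoding RNA genes Gm38462 and Hoxd3os1, the second start of Hoxd11 and the start of Hoxd3, which lay 11.1 kb from a peak. Over all genes with the whole span under control peaks, 30.2% had no base of the span under an Eed cKO peak, and among the 10 genes here this held for Hoxd13, Hoxd10, Hoxd9 and Hoxd8.

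Hoxd4 and Hoxd3, anterior genes that pattern the hindbrain and the neck vertebrae, had Eed cKO peaks over their bodies and not at their listed starts. The RefSeq span of Hoxd3 is 36.3 kb long and contains the 7.18 kb of Hoxd4, so both genes share peaks and the reads cannot be assigned to either. The Eed cKO peak of 7.05 kb (chr2:74723114-74730160) began 1136 bp after the Hoxd4 start and covered 84.2% of that gene. After 2.05 kb without a call it was followed by the 16.1 kb peak (chr2:74732213-74748278), whose end lay just past the end of Hoxd3. Together these peaks covered 63.7% of the Hoxd3 span.

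The peak at Hoxd4 also held Mir10b, a microRNA gene of the cluster (chr2:74726070-74726137), which was covered to 100% in both lists. miR-10 microRNAs are conserved residents of Hox clusters near the Hox4 genes. The paralogue Mir10a lies in the Hoxb cluster on chromosome 11 (96317165 to 96317274), where neither list had a peak over it and the nearest Eed cKO peak was 8.27 kb away. Their mature 5p forms carry the same seed, shown in capitals (bases 2 to 8), so that the pair is alike in sequence and differs in H2AK119ub coverage in both lists.
miR-10b-5p: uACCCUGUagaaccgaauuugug
miR-10a-5p: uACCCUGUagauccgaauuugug

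Hoxd1, the last gene of the cluster, known for its part in sensory neurons for pain, had the narrowest of the 5 Eed cKO peaks. The 2.31 kb peak (chr2:74763940-74766246) began 960 bp after the Hoxd1 start and covered 55.6% of the 2.16 kb gene. Between it and the peak in Hoxd3 lay 15.7 kb without a call (chr2:74748279-74763939). That stretch held the whole of Haglr, a long noncoding RNA gene of 14.5 kb, and Gm14424, both covered to 100% in control and 0% in Eed cKO. From Hoxd3 to Hoxd1, 53.2 kb, Eed cKO peaks covered 45.7%, against 69.3% from Evx2 to Hoxd11 and 0% over the 20.9 kb from the end of Hoxd11 to the end of Hoxd8. These segments were drawn after the positions of the peaks were seen.

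**Figure D2:**
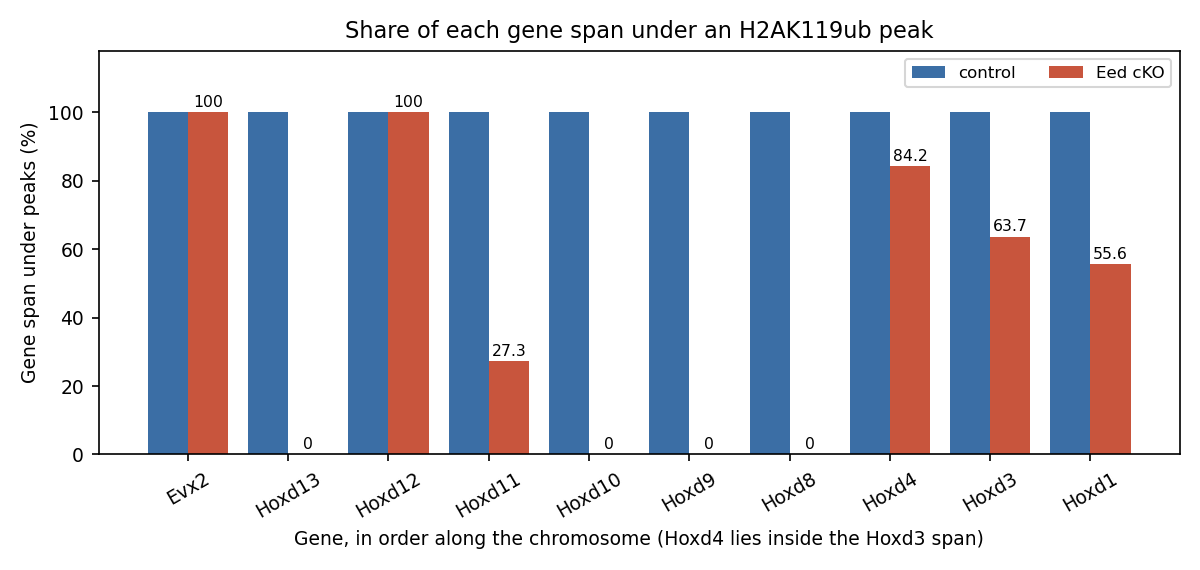
Share of each gene span under H2AK119ub peaks (%, y axis) for the 10 genes in the order along the chromosome, with control and Eed cKO bars side by side and 1 list per genotype, hence no error bars. Control bars are at 100% throughout, whereas Eed cKO bars range from 0% at Hoxd13, Hoxd10, Hoxd9 and Hoxd8 to 100% at Evx2 and Hoxd12.

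How many of the 10 genes count as marked in Eed cKO depended on which part of the gene was asked about. With 2000 bp on either side of both gene ends, the control list marked 10 of 10 and the Eed cKO list 7 of 10, with shares over all protein-coding genes of 11.6% and 7.40%. With 2000 bp on either side of the listed start alone, the numbers were 10 of 10 in control (9.36% of genes with a listed start) and 6 of 10 in Eed cKO (5.70%), Hoxd3 being the gene that dropped out. Of all genes marked at a gene end in control, 49.0% were also marked in Eed cKO. With at least 50% of the span covered, 10 of 10 passed in control (3.27% of all genes) and 5 of 10 in Eed cKO (2.39% of all genes): Evx2, Hoxd12, Hoxd4, Hoxd3 and Hoxd1. With the listed transcription start itself under a peak, 10 of 10 passed in control (6.73% of genes with a listed start) and 3 of 10 in Eed cKO (3.90%): Evx2, Hoxd12 and Hoxd11. Of all genes with a start under a control peak, 44.0% also had one under an Eed cKO peak. Of the 8 starts outside Eed cKO peaks, 4 lay within 2000 bp of one, at 481 bp (Hoxd13), 726 bp (second Hoxd11 start), 960 bp (Hoxd1) and 1136 bp (Hoxd4). At these starts the call rests on where the edge of a peak was set, and the labels name neither the caller nor its resolution. The other 4 starts, of Hoxd10, Hoxd9, Hoxd8 and Hoxd3, were more than 10 kb from any Eed cKO peak. For Hoxd10 this holds for the listed start and not for the gene ends, which met a peak within 5000 bp. Neighbouring genes share peaks, so the 10 genes are not independent cases.

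Taken as totals, DNA between the protein-coding genes was covered less than the gene spans in Eed cKO. The joined gene spans, 74.4 kb, were covered to 50.5%, and the 37.8 kb between genes to 27.3%. In control both were at 100%. The Hoxd3 span, 36.3 kb covered to 63.7%, made up much of the joined spans. The 14.7 kb between Hoxd3 and Hoxd1, covered to 0.0476%, made up much of the DNA between genes. The order of the totals leaned on these, and the shares were not computed without them. Single gene spans and single intervals both ranged from 0% to 100%. The intervals also hold noncoding genes, Gm31790 (5.34 kb) between Evx2 and Hoxd13 and Haglr (14.5 kb) between Hoxd3 and Hoxd1. The value between genes was made up of the stretch from Evx2 to Hoxd11, where 65.4% to 100% of each interval was covered, and of the rest of the cluster, where coverage was 0% except for the first few bases after Hoxd3.

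The Hoxd domain met 5 Eed cKO peaks, more than any other control peak. Several other domains, those of Hoxc and Hoxa among them, met 4 each. With the wider peaks alone, or with peaks within 5000 bp merged, the Hoxd window held 4, so the lead can depend on such settings. Of the 4621 control peaks, 2870 (62.1%) met none, 1646 met 1, 88 met 2, and 17 (0.368%) met 3 or more. A wide peak has room to meet more peaks, and the Hoxd domain is the widest. Over all control peaks 36.8% of the bases were covered in Eed cKO, and over the 50 widest (35.1 kb and above) the median share was 46.1%, with 21 covered less than the Hoxd domain and 28 covered more. The uncalled stretch of 41.5 kb was longer than that in all but 4 control peaks. Of those 4, only the Hoxc domain met an Eed cKO peak.

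**Figure D3:**
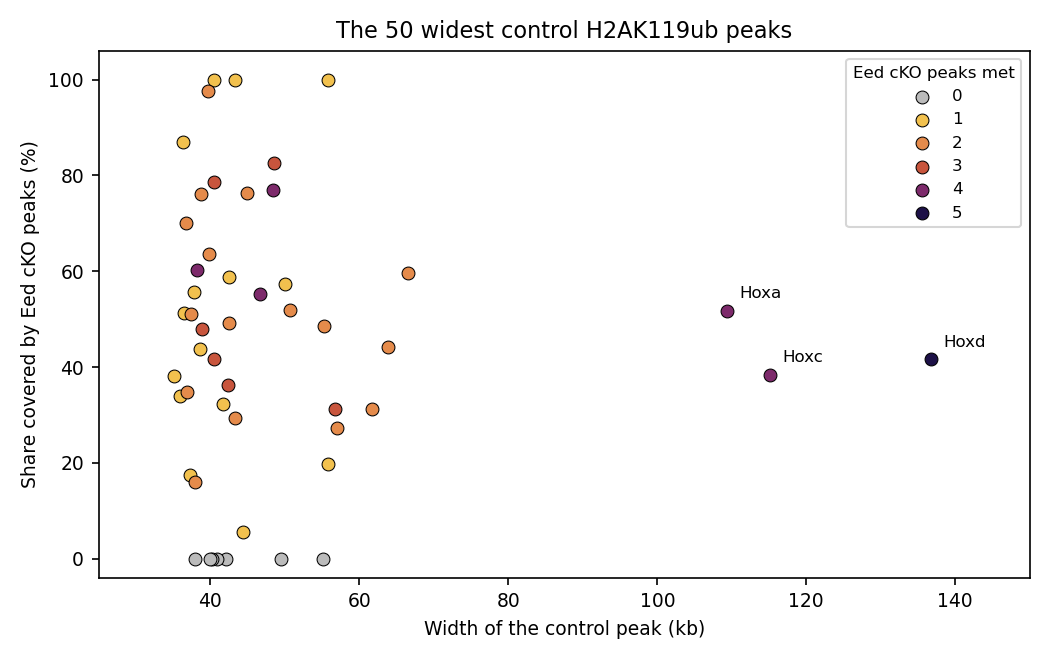
The 50 widest control peaks, by width (kb, x axis) and the share of their bases covered by Eed cKO peaks (%, y axis). Each point is 1 control peak, coloured by the number of Eed cKO peaks it met. The Hoxd domain lies at the right at 136.8 kb and 41.6%, with the Hoxc and Hoxa domains as the next widest.

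The other Hox clusters carried broken H2AK119ub coverage already in control. From the first to the last gene reported here, control peaks covered 100% at Hoxd, 71.0% at Hoxa with Evx1, 68.7% at Hoxc and 46.1% at Hoxb. The windows of these clusters held 1, 4, 3 and 6 control peaks. In Eed cKO the share from first to last gene was 42.7% at Hoxd, 36.6% at Hoxa, 43.8% at Hoxc and 13.4% at Hoxb. The windows held 5, 6, 5 and 5 Eed cKO peaks. At Hoxb 1 of them lay wholly before the first gene, Hoxb13, and added nothing to that share. The widest control domain was covered to 41.6% at Hoxd, 51.7% at Hoxa (109.4 kb), 38.4% at Hoxc (115.1 kb) and 27.2% at Hoxb (57.0 kb). Of 30 genes described from these clusters, Evx1 among them, 24 were marked at a gene end in control and 21 in Eed cKO. Of these, 18 were marked in both lists. Over all protein-coding genes the shares were 11.6% and 7.40%, and 49.0% of those marked in control were also marked in Eed cKO. Hoxa3, Hoxa7, Hoxb9, Hoxb8, Hoxb7 and Hoxb1 were marked in control alone, and Hoxa4, Hoxb3 and Hoxc4 in Eed cKO alone. With 1 list per genotype, differences between clusters were not tested.

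Paralogues of the Hoxd genes, the members of the other clusters that descend from the same ancestral gene, were covered unevenly in Eed cKO. In group 13, Hoxa13 and Hoxc13, like Hoxd13, had the whole span under a control peak and 0% under an Eed cKO peak, whereas Hoxb13 was covered to 100% in both lists. The Hoxa13 start lay 336 bp from the nearest Eed cKO peak, close to the 481 bp at Hoxd13. In group 12, Hoxc12, like Hoxd12, was covered to 100% in both lists. In group 11, each covered to 100% in control, the Eed cKO shares were 100% for Hoxa11, 0% for Hoxc11 and 27.3% for Hoxd11. In group 10 they were 0% for Hoxa10, 100% for Hoxc10 and 0% for Hoxd10. A span at 0% can still lie near a peak. The listed Hoxa10 starts lay 133 and 6048 bp from an Eed cKO peak, and the Hoxd10 start 10294 bp. In group 9 control coverage was again 100% throughout. The Eed cKO shares there were 60.2% for Hoxa9, 0% for Hoxb9, 24.3% for Hoxc9 and 0% for Hoxd9. In group 8, Hoxb8 was covered to 72.7% in control and 0% in Eed cKO and Hoxc8 to 70.7% and 48.1%, beside 100% and 0% for Hoxd8. In group 4, where Hoxd4 had 100% and 84.2%, Hoxa4 was covered to 0% in control and 66.1% in Eed cKO, and Hoxb4 and Hoxc4 to 0% in both lists. In group 3, where Hoxd3 had 100% and 63.7%, Hoxa3 was at 14.9% and 19.3% and Hoxb3 at 0% and 4.41%. In group 1, Hoxb1 was at 100% in control and 0% in Eed cKO, against 100% and 55.6% for Hoxd1. Evx1, the paralogue of Evx2, had its start under peaks of both lists, as Evx2 did.

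**Figure D4:**
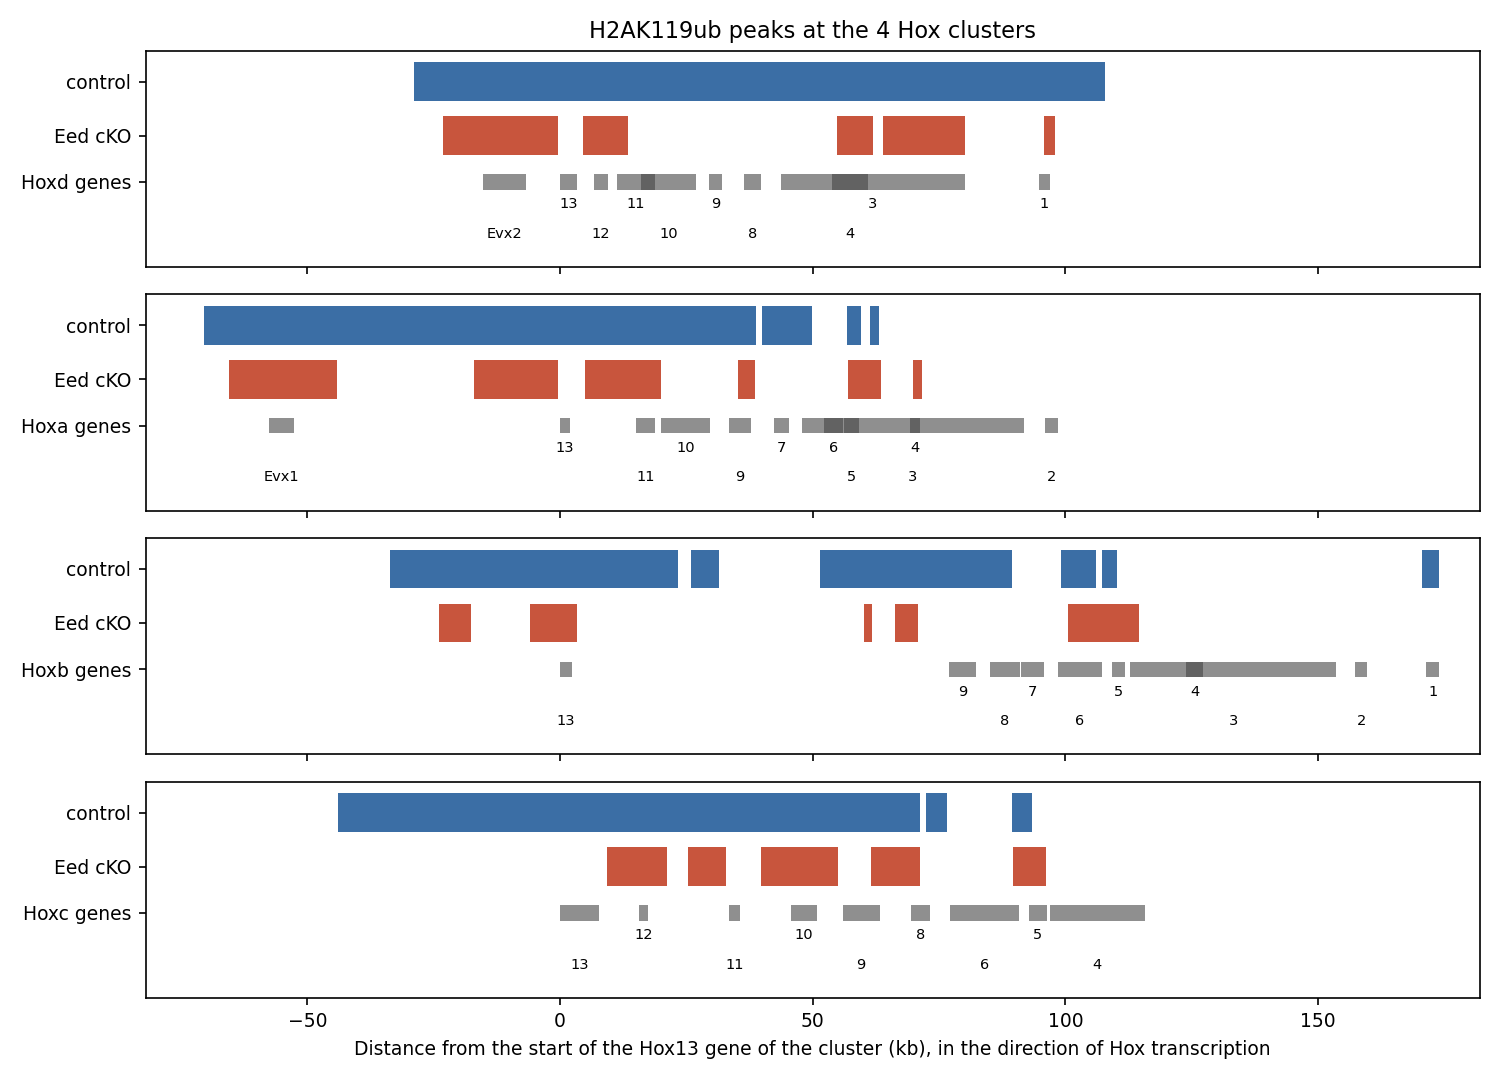
H2AK119ub peaks at the Hoxd, Hoxa, Hoxb and Hoxc clusters, aligned on the start of the Hox13 gene of each, with distance in kb on the x axis in the direction of Hox transcription. Upper bars are control peaks, lower bars Eed cKO peaks and grey bars gene spans, labelled by gene number. In control the Hoxd genes lie under 1 peak, while the other windows hold 3 to 6 control peaks.

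Outside the cluster, control peaks lay in the gene-poor DNA on both sides, which is known to hold limb enhancers of the Hoxd genes. In the 1 Mb before the window, control had 7 peaks covering 50.3 kb, and the Eed cKO list had none. The nearest was a 10.6 kb peak 332.8 kb from the domain (chr2:74295897-74306507). The 7 were 1.56 to 10.6 kb wide and 1 of them lay at a gene end, that of Chn1. In the 1 Mb after the window control had 4 peaks covering 27.6 kb and Eed cKO had 3 covering 7.64 kb. A single pair overlapped, a 2.89 kb control peak (chr2:75061684-75064577) and a 2.56 kb Eed cKO peak (chr2:75062033-75064593). The widest control peak on this side, 19.5 kb (chr2:75132374-75151880), met none. As 62.1% of all control peaks met no Eed cKO peak, 7 of 7 and 3 of 4 are small counts on which no comparison can rest.

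The genes next to the cluster on either side had no called H2AK119ub. Lnpk, an endoplasmic reticulum shaping gene, lay 59.9 kb from the control domain on the Evx2 side, and Mtx2, a gene for a mitochondrial import protein, lay 49.7 kb from it on the Hoxd1 side. Both were covered to 0% in both lists. Of 12 genes listed on both sides of the cluster, 1 (Chn1) had a peak at a gene end in control and 0 had one in Eed cKO, near the shares over all genes of 11.6% and 7.40%.

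Genes that work with Hoxd proteins were marked to different degrees. Of 22 regulators of limb and genital tubercle development, 16 had a peak at a gene end in control and 14 in Eed cKO, all 14 of them also marked in control, against 11.6% and 7.40% of all genes. Shh, the ligand of the limb's posterior organizer, was covered over 100% of its span in control and 88.5% in Eed cKO. Pitx1, the hindlimb factor, Tbx2, Fgf4 and Fgf8 were at 100% in both lists, and Tbx3 was at 100% in control and 42.7% in Eed cKO. These are examples. Over the 22 regulators the median covered share of the span was 54.6% in control and 28.7% in Eed cKO. At least 50% of the span was covered in 12 of them in control and 6 in Eed cKO, against 3.27% and 2.39% of all genes. Tbx5, the forelimb factor, and Fgf10 were marked at a gene end in control alone. Tbx5 was still covered over 20.4% of its span in Eed cKO, against 36.9% in control, and Fgf10 over 0%, against 2.39%. The TALE family are homeodomain proteins that bind DNA together with Hox proteins. Of 11 TALE genes, 3 were marked at a gene end in control (Meis1, Meis2 and Pknox2) and 0 in Eed cKO. Over all genes the shares were 11.6% and 7.40%, and counts out of 11 are too small to set against them. Meis1 was covered over 34.1% of its span in control and 0% in Eed cKO, and Pknox2 over 4.15% and 0%. Meis2 had nearly the same share in both lists, 0.944% and 0.929%, so it had an Eed cKO peak inside its span and away from its ends.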

How the data were processed

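The authors deposited 1 list of H2AK119ub peaks for Control and 1 for Eed cKO, with chromosome, start and end per the file headers. Per the submitters' processing notes, the build was mm10 and the tools included SAMtools 1.9 and Bowtie2 2.3.3.1. The lists hold no count, score or height. Which caller and call threshold were used, how the inputs entered, and whether and how libraries were joined is not given in the sources used here. Starts were read as counted from 0 and are printed from 1.

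Gene spans, of 21896 protein-coding genes, and transcription starts, of 17491 of them, came from RefSeq tables of GRCm38.p6. A gene was called marked where a peak overlapped 2000 bp on either side of either gene end by at least 1 bp. Covered shares are bases under peaks divided by the length. The interval functions were tested on simulated data. The 10 genes, the gene lists and the rules were chosen with earlier results of these data known. Every one of the 10 genes is described, along with the genes beside them. Members of other lists are named where they had a peak at a gene end in 1 list alone, or where few were marked. Others are named as examples chosen after their values were seen. In the comparison with other Hox clusters 1 gene is not reported here. The groups came from the labels, and no test was run. Alternatives were other flanks, gene windows, merging of peaks and the wider peaks of each list. Computation used Python 3.11.15, numpy 2.4.6 and pandas 2.3.3.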

Additional observations from a re-analysis of the deposited data

How the results depend on the processing

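No paired analysis was possible because the files hold 1 list per genotype and name no replicate in it, and for the same reason no replicate could be left out. The control domain stayed 1 peak over all 10 genes under every alternative run. The window held 4 Eed cKO peaks with the wider peaks alone and 4 with peaks within 5000 bp merged, against 5. Eed cKO peaks covered 39.9% of the control domain with the wider peaks alone, against 41.6%. With peaks within 5000 bp merged they covered 43.1% of it. The covered share of the joined gene spans was 48.9% with the wider peaks alone and 47.2% with 2000 bp added on both sides, against 50.5%. The number of genes marked in Eed cKO, and in both lists, was 3 with the transcription start itself under a peak, a rule added after the data were seen, against 7 with gene ends. It was between 5 and 8 under the other rules. Unknown read depth limits every statement about stretches without a peak.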

Other observations

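Other microRNA genes of the Hox clusters differed in their peaks. Mir196b, in the Hoxa cluster on chromosome 6, lay under a control peak alone, with the nearest Eed cKO peak 4.41 kb away. Mir196a-2, in the Hoxc cluster on chromosome 15, lay under peaks of both lists, as Mir10b did. Mir196a-1, in the Hoxb cluster on chromosome 11, lay under a control peak and at the edge of an Eed cKO peak. Both mature forms of Mir615, in the Hoxc cluster, lay under an Eed cKO peak alone. These are single positions with no replicate.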
